A study of Mus musculus with 3 samples.

Results

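The genes described are Igf1, which encodes insulin-like growth factor 1 (IGF1), and the IGF binding protein genes Igfbp2, Igfbp3, Igfbp4, Igfbp5, Igfbp6 and Igfbp7. They were chosen by symbol, and each matched 1 of the 27998 genes in the count tables, so that 7 genes in all were followed. Dissociated lungs of mice were profiled cell by cell with droplet RNA sequencing (10x Genomics 3' version 2 chemistry), in which each captured RNA molecule is counted once through its unique molecular identifier (UMI). There were 3 libraries, 1 per group. The FLASH library came from lung after thoracic irradiation of isoflurane-anaesthetised mice with 17 Gy of 4.5 MeV electrons in FLASH mode, that is, at an ultra-high dose rate. The CONV library came from lung given the same dose with the same electron energy at conventional dose rate, and the control library from lung that was not irradiated. Mice of all 3 groups were C57BL/6 females aged 10 to 12 weeks, and none carried a transgene or deletion named in the labels. How many mice went into a library, and how long after irradiation lungs were taken, is not given in the sources used here.

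IGF1 is a secreted growth factor that signals through the receptor tyrosine kinase IGF1R. The binding proteins are secreted too: they hold IGFs in the extracellular space, extend their lifetime and limit their access to the receptor, and proteases such as pappalysin release the growth factor by cutting the binding protein. IGFBP7 binds IGFs only weakly and IGFBP6 prefers IGF2, while IGFBP3 carries IGFs in the circulation in a complex with the acid labile subunit. In lung, Igf1 is known from macrophages and fibroblasts, and Igfbp2 is known as a marker of mature alveolar type 1 (AT1) cells.

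With 1 library per group there were no replicates, so no difference was tested and none can be told apart from a difference between the animals or preparations. Intervals throughout are 95% intervals that cover counting error only: exact Poisson for a level, exact conditional binomial for a ratio, Clopper-Pearson for a share. A level is the sum of a gene's UMIs over the cells of a class in 1 library, scaled to a common total of UMIs of those cells (CPM). It compares libraries for the same gene and class, and is not corrected for gene length. The libraries differed in depth and make-up. FLASH held 5498902 UMIs over 2394 barcodes, CONV 7463259 over 2507 and control 7114360 over 1761, with medians of 1776.5, 2351 and 2960 UMIs per barcode in that order. The 6346 cells kept were 2253 FLASH, 2388 CONV and 1705 control cells. The control library stood apart in its lymphoid cells, which numbered 538 in FLASH, 506 in CONV and 999 in control. Among them, 0 FLASH cells, 1 CONV cell and 356 control cells fell in the thymocyte-like class or in a cluster led by the cell cycle genes 2810417H13Rik and Rrm2, whose closest listed type was thymocyte. No member was described in those 2 classes, and totals over a library are given with and without lymphoid cells. In all, 19 barcode sequences occurred in 2 libraries.

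Cells were grouped into 26 classes by clustering on variable genes from which the 7 members had been left out, so that the members did not set the classes. Of these, 22 were named from marker genes and are called "-like", and 4 are called by their leading genes. The lung label held: AT1-like, AT2-like, club-like, ciliated-like, fibroblast, capillary and alveolar macrophage-like classes were present in every library. Each of these classes had all of its listed markers detected in every library, except that 1 general capillary marker was at 0 in CONV. One large stromal cluster, led by Mmp3 and Mgp (181 FLASH, 208 CONV and 32 control cells), was closest to adventitial fibroblasts but had none of their markers among its top 10 genes, and it was left unnamed. Its cells also carried alveolar fibroblast markers, which summed to 10984 CPM in FLASH, 11070.1 CPM in CONV and 8872 CPM in control. Adventitial fibroblast markers summed to 4868, 4312 and 5623 CPM in the same order. The part of either list in the ratios of this cluster was not tested. B-like cells are not known for these genes, and their level is given as a measure of RNA free in the droplets. Shares of cells with a UMI are also given with cells thinned to 1000 UMIs, which left out 4 FLASH B-like cells, 1 FLASH T-like and 1 FLASH alveolar fibroblast-like cell among the classes shown.

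The 7 genes lie on 5 chromosomes in build mm10. Igf1 (ENSMUSG00000020053) spans chr10:87858265-87937042 on the plus strand, and its start overlaps the antisense gene Igf1os at chr10:87826377-87863381, which ends far from the 3' end that this chemistry reads. Igfbp2 (ENSMUSG00000039323, chr1:72824503-72852474, plus strand) and Igfbp5 (ENSMUSG00000026185, chr1:72857932-72874884, minus strand) are neighbours that face each other tail to tail with 5457 bases between them. Igfbp3 (ENSMUSG00000020427, chr11:7206086-7213923, minus strand) lies beside Igfbp1, with 3539 bases between them. Igfbp4 (ENSMUSG00000017493) spans chr11:99041244-99054392, Igfbp6 (ENSMUSG00000023046) chr15:102144362-102149511 and Igfbp7 (ENSMUSG00000036256) chr5:77349240-77408041.

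Promoter windows of 300 bases (250 before to 50 after the RefSeq start, build GRCm38.p6, written 5' to 3' on the gene's strand) are shown for 4 of the genes. Igfbp2 and Igfbp5 are shown because these neighbours were both found in ciliated-like cells, and Igfbp3 and Igfbp6 because their levels differed from control in opposite directions. Capitals mark every match, on either strand, to any of 4 motifs. One is the GC box, spelled GGGCGG, and another is the TATA box, which was searched as TATAAA. The others are a half-site of RFX factors, for which the search used GTTGCC, and the p53 half-site. The windows are chr1:72824230-72824529 for Igfbp2, chr1:72874816-72875115 for Igfbp5, chr11:7213874-7214173 for Igfbp3 and chr15:102143936-102144235 for Igfbp6.
Igfbp2: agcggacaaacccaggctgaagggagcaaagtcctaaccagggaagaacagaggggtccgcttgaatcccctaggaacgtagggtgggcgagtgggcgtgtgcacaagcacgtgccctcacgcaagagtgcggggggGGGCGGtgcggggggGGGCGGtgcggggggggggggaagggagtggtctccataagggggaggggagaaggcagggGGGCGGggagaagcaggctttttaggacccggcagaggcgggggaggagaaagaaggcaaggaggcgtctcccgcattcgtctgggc
Igfbp5: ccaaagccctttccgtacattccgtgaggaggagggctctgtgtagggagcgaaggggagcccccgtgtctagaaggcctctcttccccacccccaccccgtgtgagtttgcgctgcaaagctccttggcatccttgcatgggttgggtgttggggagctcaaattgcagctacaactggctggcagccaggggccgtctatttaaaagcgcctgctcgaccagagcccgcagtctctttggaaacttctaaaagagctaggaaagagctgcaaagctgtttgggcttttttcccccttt
Igfbp3: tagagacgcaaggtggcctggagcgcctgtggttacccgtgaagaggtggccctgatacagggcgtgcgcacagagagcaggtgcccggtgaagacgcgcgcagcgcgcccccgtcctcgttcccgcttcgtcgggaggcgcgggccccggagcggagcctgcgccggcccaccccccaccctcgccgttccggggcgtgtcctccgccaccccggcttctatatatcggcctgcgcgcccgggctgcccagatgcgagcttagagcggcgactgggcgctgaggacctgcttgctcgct
Igfbp6: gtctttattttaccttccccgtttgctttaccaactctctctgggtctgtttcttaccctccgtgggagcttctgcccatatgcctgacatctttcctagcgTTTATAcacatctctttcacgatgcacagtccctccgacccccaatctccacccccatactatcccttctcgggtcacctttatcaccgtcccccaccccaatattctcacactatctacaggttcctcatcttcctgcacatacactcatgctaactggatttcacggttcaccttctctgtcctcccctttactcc
The Igfbp2 window shown held 3 GC boxes, none of which overlapped another match, and the Igfbp6 window held 1 TATA box on the opposite strand. No match to any of the 4 motifs was found in the Igfbp5 and Igfbp3 windows. Of 32851 promoter windows of this length, 35.7% held the GC box, 13.6% the TATA box, 12.5% the RFX half-site and 8.36% the p53 half-site. All 7 genes had a window, and the windows not printed held 4 GC boxes for Igfbp7, 1 TATA box for Igfbp4 and none of the motifs for Igf1 or for a second RefSeq start of Igfbp2 (chr1:72825137-72825436). The RefSeq start of Igfbp6 lies 176 bases upstream of the GENCODE start, so its window ends before the GENCODE start.

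The order of the classes was read for each gene over the 21 classes with at least 10 cells in each library. Igfbp2 was an AT1-like gene, Igfbp3 an alveolar fibroblast-like gene, Igfbp5 and Igfbp6 were highest in mesothelium-like cells, Igfbp4 in adventitial fibroblast-like cells, Igfbp7 in aerocyte capillary-like cells and, by the mean of the libraries, Igf1 in interstitial macrophage-like cells. In control alone, Igf1 was higher in adventitial fibroblast-like cells. The lowest library of a class was above the highest B-like library in 6 classes for Igf1, 2 for Igfbp2, 5 for Igfbp3, 8 for Igfbp4, 6 for Igfbp5, 9 for Igfbp6 and 9 for Igfbp7. Among the classes that did not clear the B-like level, the highest mean over the 3 libraries was 30.3 CPM for Igf1 (smooth muscle-like), 68.2 CPM for Igfbp4 (Itm2a-Tnfrsf4 cluster) and 99.6 CPM for Igfbp7 (interstitial macrophage-like). B-like cells held 0 UMIs of Igf1 over the 3 libraries, 2 each of Igfbp2 and Igfbp3, 3 of Igfbp5, 11 of Igfbp4, 12 of Igfbp6 and 41 of Igfbp7.

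**Figure D1:**
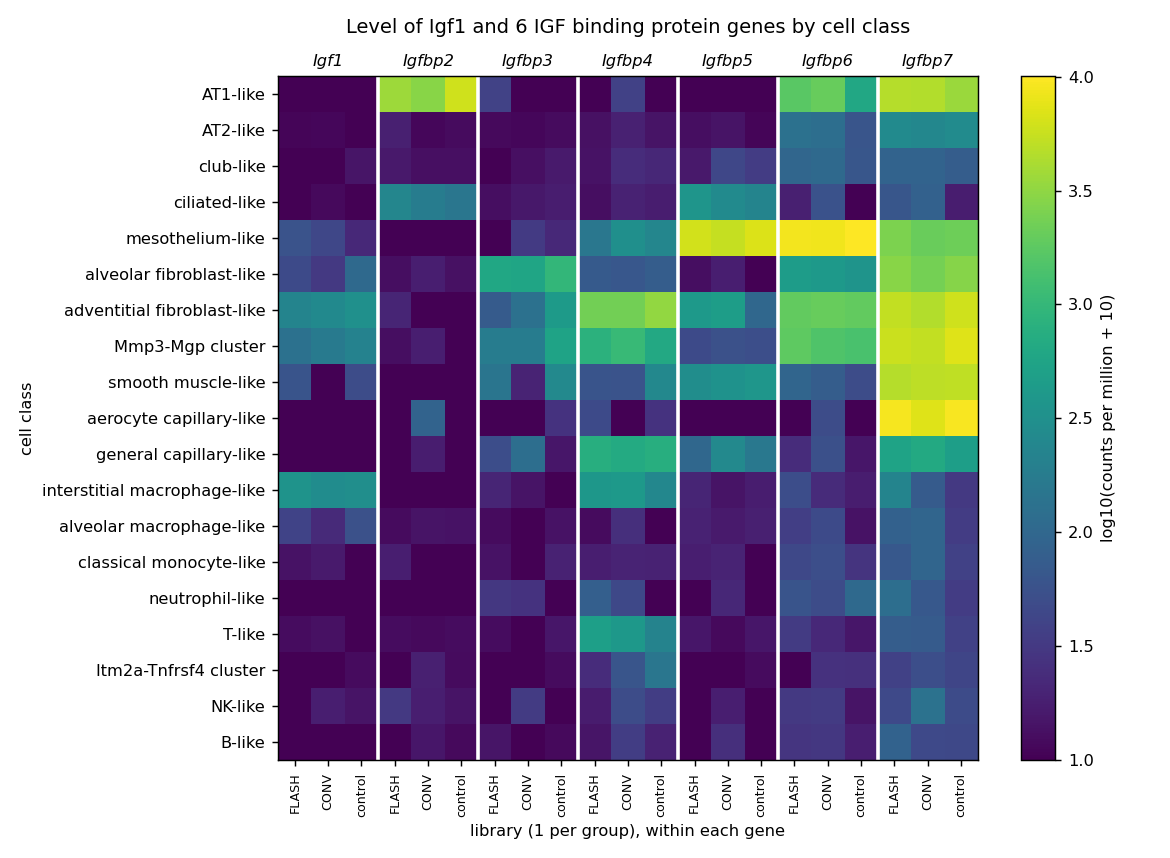
Level of Igf1 and the 6 binding protein genes in 19 cell classes (down the page), for the FLASH, CONV and control libraries (side by side within each gene), as log10 of CPM plus 10. Igfbp2 is bright in AT1-like cells and Igfbp5 and Igfbp6 in mesothelium-like cells in every library, while Igfbp7 is bright across stromal and aerocyte capillary-like cells and every gene is dark in B-like cells.

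Igf1, the growth factor itself, was carried by macrophages and fibroblasts. In interstitial macrophage-like cells it stood at 337 CPM in FLASH, 277 CPM in CONV and 295 CPM in control (66, 62 and 41 UMIs in 89, 88 and 29 cells). Adventitial fibroblast-like cells had 219, 253 and 310 CPM in FLASH, CONV and control, which overlaps the range of the macrophages. The Mmp3-Mgp cluster followed with 123 CPM in FLASH, 157 CPM in CONV and 206 CPM in control, below the adventitial range. Alveolar fibroblast-like cells were lower again, at 36.6, 21.1 and 95.7 CPM in the same order of libraries. Alveolar macrophage-like cells had only 30.6 CPM in FLASH, 13 CPM in CONV and 45.0 CPM in control. Interstitial and alveolar macrophages thus differed in Igf1 in each of the 3 libraries, with no overlap of their ranges.

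Ratios of Igf1 to control were formed where the UMIs sufficed, in interstitial macrophage-like and adventitial fibroblast-like cells and the Mmp3-Mgp cluster, and their counting intervals all included 1. Alveolar fibroblast-like cells were under that minimum, with 12 FLASH, 11 CONV and 27 control UMIs, and there the interval of CONV (10.6 to 37.8 CPM) lay below that of control (63.1 to 139 CPM), while that of FLASH (18.9 to 63.9 CPM) just overlapped it. In interstitial macrophage-like cells the FLASH to control ratio was 1.14 (0.762 to 1.73) and the CONV to control ratio 0.940 (0.624 to 1.43). A UMI of Igf1 was found in 41.6% of FLASH, 42.0% of CONV and 65.5% of control cells of this class, at median depths of 1954, 2384 and 4465 UMIs. With all cells thinned to 1000 UMIs, the shares were 25.8% in FLASH, 22.7% in CONV and 31.0% in control, against 0 cells in the B-like class. In the Mmp3-Mgp cluster the FLASH to control ratio was 0.598 (0.355 to 1.03), with 43 and 24 UMIs, and over the alternatives it ran up to 0.753, within 1.5-fold in 3 of 11 settings. The CONV to control ratio there was 0.761 (0.478 to 1.26).

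Igfbp2 was concentrated in AT1-like cells, the thin cells of gas exchange. They made up 1.91% of FLASH, 1.34% of CONV and 0.645% of control cells but held 70.3%, 64.7% and 85.9% of the Igfbp2 UMIs in that order. The level was 3585 CPM in FLASH (43 cells), 2933 CPM in CONV (32 cells) and 6038 CPM in control (11 cells). Both irradiated libraries were lower than control, with ratios of 0.594 (0.488 to 0.723) for FLASH and 0.486 (0.397 to 0.595) for CONV, and the FLASH to CONV ratio was 1.22 (1.01 to 1.48). The single cells overlapped widely: per 1000 UMIs of a cell, Igfbp2 ran from 0 to 12.8 with a median of 2.72 in FLASH, from 0 to 9.16 with a median of 2.03 in CONV, and from 0.412 to 14.3 with a median of 3.99 in control. The control value rests on 11 cells, of which 1 held 45 of the 183 UMIs. Over the alternatives the FLASH ratio ran from 0.550 to 0.731, so that it was not past 1.5-fold in every setting, and the CONV ratio from 0.427 to 0.621. Without the cell with most UMIs in each library they were 0.641 and 0.516.

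The only other class with Igfbp2 above the B-like level was the ciliated-like class, which also carried its neighbour Igfbp5. Igfbp2 stood there at 231 CPM in FLASH, 171 CPM in CONV and 142 CPM in control, and Igfbp5 at 357, 264 and 216 CPM in the same order. The control class had 20 cells, with 19 and 29 UMIs of these genes. The FLASH to control ratio was 1.63 (0.980 to 2.85) for Igfbp2 and 1.65 (1.09 to 2.56) for Igfbp5, and the CONV to control ratio 1.21 (0.732 to 2.10) and 1.22 (0.815 to 1.89). In 1 of 12 settings each the FLASH ratios were within 1.5-fold, at 1.43 and 1.40. Over all genes counted in this class the median log2 ratio was -0.03 for FLASH and -0.25 for CONV against control, so the median gene of the CONV class lay below control. Club cell markers summed to 32067 CPM in FLASH, 151918 CPM in CONV and 13564 CPM in control ciliated-like cells, with 5 of 5 detected in each. Markers of AT1 cells, the main Igfbp2 class, summed to 160 CPM in FLASH, 316 CPM in CONV and 127 CPM in control, with Pdpn at 0 in each. The part of either list in these ratios was not tested. UMIs of both genes were found together in 27 of 91 FLASH, 31 of 98 CONV and 7 of 20 control cells.

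**Figure D2:**
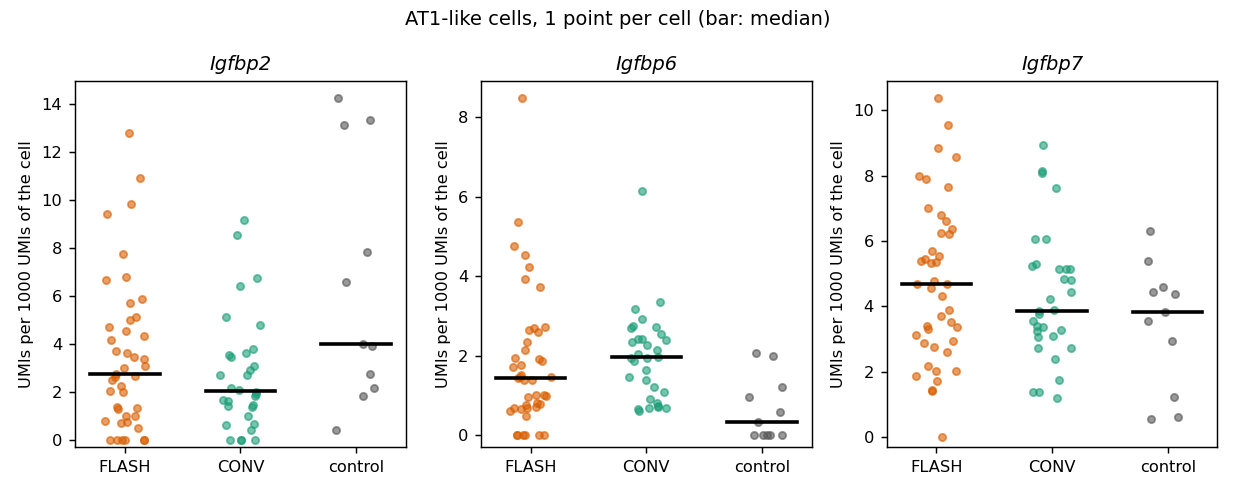
UMIs of Igfbp2, Igfbp6 and Igfbp7 per 1000 UMIs of the cell (vertical axes) in AT1-like cells of the FLASH, CONV and control libraries, 1 point per cell with the median as a bar. The median of Igfbp6 is 1.44 in FLASH and 1.96 in CONV against 0.317 in control, the median of Igfbp2 is highest in control, and the cells of the libraries overlap for all 3 genes.

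Igfbp6, whose product prefers IGF2, differed from control in the epithelium. In AT1-like cells it stood at 1719 CPM in FLASH, 1997 CPM in CONV and 627 CPM in control (117, 145 and 19 UMIs). The FLASH to control ratio was 2.74 (1.68 to 4.72) and the CONV to control ratio 3.18 (1.97 to 5.44). A UMI was found in 37 of 43 FLASH, 32 of 32 CONV and 6 of 11 control cells, at median depths of 1468, 1907.5 and 2426 UMIs. In these cells AT2 markers summed to 2953 CPM in FLASH, 3552 CPM in CONV and 1056 CPM in control, mesothelium markers had 1, 4 and 1 UMIs with Wt1 at 0 in each library, and their part was not tested. Over the alternative settings the ratios of AT1-like cells stayed between 2.09 and 3.26 for FLASH and between 2.27 and 3.63 for CONV.

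The surfactant-producing AT2-like cells showed the same direction at a lower level. Igfbp6 stood there at 122 CPM in FLASH, 112 CPM in CONV and 52.1 CPM in control (130, 177 and 46 UMIs in 331, 404 and 135 cells), giving ratios of 2.34 (1.66 to 3.34) and 2.16 (1.55 to 3.05) to control. The FLASH to CONV ratio was 1.08 (0.857 to 1.37). The share of cells with a UMI was 30.5% in FLASH, 31.9% in CONV and 26.7% in control at median depths of 3197, 3863 and 6466 UMIs, and 13.6%, 10.1% and 4.44% after thinning to 1000 UMIs. The thinned share in B-like cells was 0.752% in FLASH, 2.11% in CONV and 0.870% in control, below AT2-like cells in each library. No cell held more than 5 of the UMIs.

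Markers of other Igfbp6-rich classes were looked at in the AT2-like cells. Mesothelium markers summed to 0.936 CPM in FLASH, 8.25 CPM in CONV and 3.40 CPM in control, with Wt1 at 0 in every library and Upk3b, Lrrn4 and Nkain4 at 0 in FLASH and control. Adventitial fibroblast markers summed to 54.3, 60.9 and 41.9 CPM and AT1 markers to 1541, 1524 and 1879 CPM in FLASH, CONV and control. The AT1 sum was thus lower and the adventitial sum higher in both irradiated libraries, and their part in the Igfbp6 difference was not tested. Over the alternatives run, one of which subtracts the B-like level of each library, the AT2-like ratios lay between 2.15 and 2.41 for FLASH and between 2.07 and 2.23 for CONV.

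Club-like cells, the secretory cells of the airway, had 88.9 CPM of Igfbp6 in FLASH, 96.4 CPM in CONV and 53.9 CPM in control. Their ratios to control were 1.65 (1.02 to 2.68) for FLASH and 1.79 (1.15 to 2.82) for CONV, in a class whose median gene had a log2 ratio of -0.17 for FLASH and -0.08 for CONV. Thinned shares went the other way, with 7.5% of FLASH, 5.26% of CONV and 15.6% of control cells, so no order is read from this class.

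In the mesothelium-like and fibroblast classes the ratios of Igfbp6 to control lay within 1.5-fold in the main setting, unlike those in AT1-like cells. Mesothelium-like cells, the lining of the pleura, had 8947 CPM in FLASH, 8596 CPM in CONV and 10009 CPM in control, in 17, 20 and 16 cells. Adventitial fibroblast-like cells had 1915, 1994 and 1882 CPM in the same order, with ratios to control of 1.02 (0.820 to 1.26) for FLASH and 1.06 (0.873 to 1.29) for CONV. The Mmp3-Mgp cluster had 1809 CPM in FLASH, 1488 CPM in CONV and 1380.0 CPM in control, and alveolar fibroblast-like cells 451, 409 and 344 CPM. In the Mmp3-Mgp cluster the ratios to control were 1.31 (1.10 to 1.57) for FLASH and 1.08 (0.909 to 1.29) for CONV. That of FLASH ran up to 1.61 over the alternatives and was within 1.5-fold in 11 of 12 settings. The mesothelium-like cells were above every other class in every library. The ratios of alveolar fibroblast-like cells to control were 1.31 (1.01 to 1.71) for FLASH and 1.19 (0.932 to 1.53) for CONV, below 1.5-fold.

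Igfbp3, whose product carries IGFs in the circulation, came mainly from alveolar fibroblast-like cells, which held 68.3% of its UMIs in FLASH, 66.4% in CONV and 65.7% in control. Its level in them was 610 CPM in FLASH, 573 CPM in CONV and 964 CPM in control (200, 298 and 272 UMIs in 204, 245 and 86 cells). Both irradiated libraries were lower, with ratios of 0.632 (0.524 to 0.762) for FLASH and 0.594 (0.502 to 0.703) for CONV, and the FLASH to CONV ratio was 1.06 (0.885 to 1.28). The range over the alternatives was 0.608 to 0.675 for FLASH, within 1.5-fold in 1 setting, and 0.578 to 0.621 for CONV. Thinned to 1000 UMIs, 41.4% of FLASH, 34.3% of CONV and 50% of control cells held a UMI, against at most 0.752% of B-like cells. In the same cells adventitial fibroblast markers summed to 1168, 976 and 1180 CPM and smooth muscle markers to 628, 736 and 812 CPM in FLASH, CONV and control. The part of either list in the Igfbp3 difference was not tested.

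Igfbp3 was also lower in the other fibroblast classes, but there it rested on few cells. In the Mmp3-Mgp cluster it stood at 172 CPM in FLASH, 174 CPM in CONV and 540 CPM in control, where 1 cell held 42 of the 63 UMIs. The ratios of 0.318 (0.220 to 0.460) for FLASH and 0.322 (0.231 to 0.451) for CONV became 0.839 and 0.889 without the cell with most UMIs in each library. In adventitial fibroblast-like cells the level was 62.5 CPM in FLASH, 120.0 CPM in CONV and 425 CPM in control, with a CONV to control ratio of 0.283 (0.152 to 0.509) that ran down to 0.147 over the alternatives, and 1 control cell held 14 of 37 UMIs. Without the cell with most UMIs too few UMIs were left there for a ratio. Only 5 of 52 FLASH, 8 of 62 CONV and 7 of 22 control cells of that class had a UMI.

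Igfbp4, whose product is the main substrate of pappalysin, was above the B-like level in stromal, general capillary-like, mesothelium-like, T-like and interstitial macrophage-like cells, but not in aerocyte capillary-like cells. Adventitial fibroblast-like cells had 2290.2 CPM in FLASH, 2288 CPM in CONV and 3236 CPM in control (220, 343 and 282 UMIs). The ratios to control of 0.708 (0.591 to 0.847) and 0.707 (0.602 to 0.831) did not pass 1.5-fold, although FLASH passed it in 2 of 13 settings (down to 0.599), and they moved to 0.878 and 0.874 without the cell with most UMIs, which in control held 79 of 282. In the Mmp3-Mgp cluster Igfbp4 stood at 830 CPM in FLASH, 1041 CPM in CONV and 634 CPM in control, with ratios of 1.31 (1.01 to 1.71) and 1.64 (1.29 to 2.12). These moved with the processing, from 1.27 to 2.33 for FLASH, within 1.5-fold in 7 of 12 settings, and from 1.504 to 2.69 for CONV. Without the top cells they were 1.55 and 2.03. General capillary-like cells had 754, 679 and 754 CPM. Adventitial fibroblast markers summed there to 62.8 CPM in FLASH, 88.5 CPM in CONV and 385 CPM in control. Lymphatic markers summed to 76.7, 44.3 and 474 CPM in the same order, and the part of either list in these levels was not tested. Lymphatic endothelium-like cells, of which the control had none, had 996 CPM in FLASH and 916 CPM in CONV.

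T-like cells were the lymphoid class with Igfbp4 above the B-like level. They had 482 CPM in FLASH, 384 CPM in CONV and 210 CPM in control (186, 216 and 82 UMIs in 263, 299 and 150 cells). The level was higher in both irradiated libraries, with ratios of 2.29 (1.76 to 3.01) for FLASH and 1.82 (1.41 to 2.38) for CONV, and the FLASH to CONV ratio was 1.26 (1.03 to 1.53). Over the alternatives the ratios to control ran from 2.02 to 3.41 for FLASH and from 1.66 to 2.73 for CONV. The median gene of the class had a log2 ratio of -0.11 for FLASH and -0.10 for CONV against control. A UMI was found in 38.8% of FLASH, 34.8% of CONV and 34.0% of control cells, and after thinning in 31.3%, 27.8% and 17.3%. B-like cells of similar depth reached at most 2.11% after thinning.

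The T-like cells were split by which coreceptor RNA was seen. Cells with Cd8a or Cd8b1 but no Cd4 had 217 CPM in FLASH, 213 CPM in CONV and 162 CPM in control (126, 175 and 84 cells). Cells with Cd4 only had 875, 618 and 242 CPM in the same order, on 18, 18 and 8 UMIs in 14, 17 and 14 cells. Cells in which neither was seen had 752 CPM in FLASH, 663 CPM in CONV and 302 CPM in control (122, 107 and 52 cells). The intervals of the Cd8 subset overlap between libraries, while those of the subset with neither RNA lie above control in both irradiated libraries. In the small Cd4 subset the FLASH interval (519 to 1384 CPM) lies above that of control (104 to 477 CPM), and the CONV interval (366 to 976 CPM) overlaps it. Thymocyte markers summed to 0 CPM in FLASH, 5.33 CPM in CONV and 25.7 CPM in control T-like cells, with Rag2, Ptcra and Arpp21 at 0 in every library, and their part in the difference was not tested.

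A second lymphoid cluster went the opposite way. The cluster led by Itm2a and Tnfrsf4, whose closest type was T but which had no T marker among its top 10 genes, held 1 Igfbp4 UMI in 45 FLASH cells, 6 in 50 CONV cells and 60 in 175 control cells. That is 13.9 CPM in FLASH, 51.0 CPM in CONV and 140 CPM in control, with ratios of 0.0992 (0.00247 to 0.574) and 0.365 (0.129 to 0.843). Over the alternatives these ran up to 0.290 for FLASH, and from 0.196 to 0.379 for CONV. The cluster made up 2.00% of FLASH, 2.09% of CONV and 10.3% of control cells. Cells with both Cd4 and Cd8 RNA numbered 0 in FLASH, 0 in CONV and 15 in control, and those held 14 of the 60 control UMIs.

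Interstitial macrophage-like cells carried Igfbp4 beside Igf1. Igfbp4 stood at 373 CPM in FLASH, 403 CPM in CONV and 237 CPM in control (73, 90 and 33 UMIs). The ratios to control were 1.57 (1.03 to 2.45) for FLASH and 1.70 (1.13 to 2.61) for CONV, and no alternative brought either within 1.5-fold. Both genes were found in 23 of 89 FLASH, 21 of 88 CONV and 12 of 29 control cells. Markers of adventitial fibroblasts, the class with the highest Igfbp4, summed to 225 CPM in FLASH, 246 CPM in CONV and 180 CPM in control in these macrophages, and their part in the difference was not tested.

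**Figure D3:**
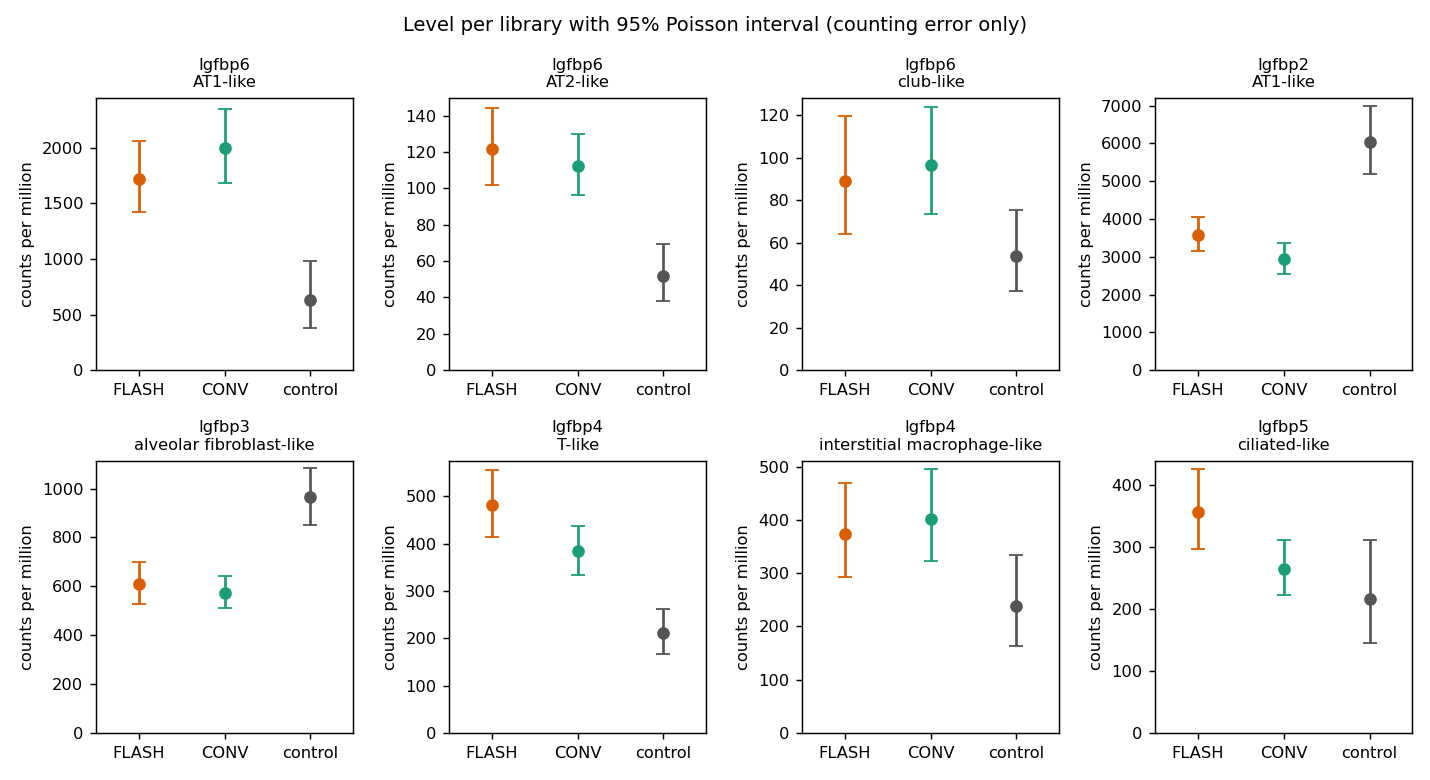
Level in CPM (vertical axes, from 0) of 8 gene and class pairs in the FLASH, CONV and control libraries, with 95% Poisson intervals that cover counting error only. FLASH and CONV lie above control for Igfbp6 in the 3 epithelial classes and for Igfbp4 in T-like and interstitial macrophage-like cells, and below control for Igfbp2 in AT1-like and Igfbp3 in alveolar fibroblast-like cells. In club-like cells the thinned shares of Igfbp6 went the other way, so no order is read from that class.

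Igfbp5 was a mesothelium gene. Mesothelium-like cells had 6321 CPM in FLASH, 5380 CPM in CONV and 6978 CPM in control, and held 53.3%, 55.8% and 80.8% of the UMIs of the library in that order. The ratios to control were 0.906 (0.779 to 1.05) for FLASH and 0.771 (0.682 to 0.872) for CONV, and 1 FLASH cell held 108 of 260 UMIs. Without the cell with most UMIs in each library they were 0.665 and 0.726, so that FLASH was then past 1.5-fold. The FLASH to CONV ratio became 0.916 in place of 1.17. Igfbp5 and Igfbp6 were found together in 16 of 17 FLASH, 19 of 20 CONV and 16 of 16 control cells of this class. Smooth muscle-like cells followed with 287, 329 and 372 CPM, and their ranges overlap those of adventitial fibroblast-like and ciliated-like cells.

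In adventitial fibroblast-like cells Igfbp5 had 396 CPM in FLASH, 460.2 CPM in CONV and 91.8 CPM in control, on 38, 69 and 8 UMIs. The CONV to control ratio was 5.01 (2.41 to 12.1), and over the 11 alternatives that gave a ratio it ran from 2.67 to 5.30. Without the cell with most UMIs too few UMIs were left for a ratio. The ratio of 5.01 rested on few cells, since 12 of 62 CONV cells had a UMI and 1 of them held 28 of the 69, while 5 of 22 control cells had one. Mesothelium markers in the class summed to 167 CPM in FLASH, 160.1 CPM in CONV and 103 CPM in control, with Msln, Upk3b and Lrrn4 at 0 in each library, and their part was not tested. General capillary-like cells had 90.7 CPM in FLASH, 251 CPM in CONV and 150 CPM in control, with a CONV to control ratio of 1.67 (0.994 to 2.83). In those cells markers of large vessels summed to 2358, 3084 and 1838 CPM and of lymphatics to 76.7, 44.3 and 474 CPM in FLASH, CONV and control, and their part was not tested.

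Igfbp7, the weak IGF binder made by vessels and stroma, had the most UMIs of the 7 genes in every library. Aerocyte capillary-like cells, the thin capillary cells of the alveolus, had 8994 CPM in FLASH, 7092 CPM in CONV and 9435 CPM in control, in 18, 15 and 17 cells. The Mmp3-Mgp cluster had 5827, 5366 and 7140.1 CPM, adventitial fibroblast-like cells 5372, 4468 and 6070.1 CPM, and smooth muscle-like cells 4602, 5004 and 5124 CPM in FLASH, CONV and control. Each of these 4 classes overlapped the next in this order over the 3 libraries, but the aerocytes lay above the adventitial and smooth muscle ranges. AT1-like cells had 4687, 4544 and 3530.4 CPM, whereas AT2-like cells had 262, 236 and 271 CPM, so the epithelial classes of the alveolus differed in this gene in every library. General capillary-like cells, with 544 CPM in FLASH, 649 CPM in CONV and 474 CPM in control, were far below the aerocytes.

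In the main setting, where both libraries together had enough UMIs for a ratio, that of Igfbp7 to control lay within 1.5-fold. For FLASH it ran from 0.816 (0.752 to 0.886) in the Mmp3-Mgp cluster to 1.33 (1.06 to 1.67) in AT1-like cells. The FLASH ratio of club-like cells was 1.21, but it was within 1.5-fold in 11 of 12 settings and as low as 0.115. For CONV the ratio to control lay between 0.736 (0.656 to 0.827) in adventitial fibroblast-like cells and 1.37 (1.01 to 1.85) in general capillary-like cells. Interstitial macrophage-like cells were under that minimum for FLASH and control, and they did not follow this: they had 214 CPM in FLASH (155 to 290), 62.6 CPM in CONV (34.2 to 105) and 21.6 CPM in control (4.45 to 63.1), on 42, 14 and 3 UMIs. The FLASH interval lies above those of both other libraries, and the FLASH to CONV ratio was 3.42 (1.83 to 6.79). Its range was 3.25 to 5.12 over the 11 alternatives that gave a ratio. Leaving out the cell with most UMIs was not among them, since too few UMIs were then left. A UMI was found in 15 of 89 FLASH and 13 of 88 CONV cells, and 1 FLASH cell held 14 of the 42 UMIs. B-like cells had 76.9 CPM in FLASH and 35.8 CPM in CONV, and the part of free RNA in this ratio was not tested.

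**Figure D4:**
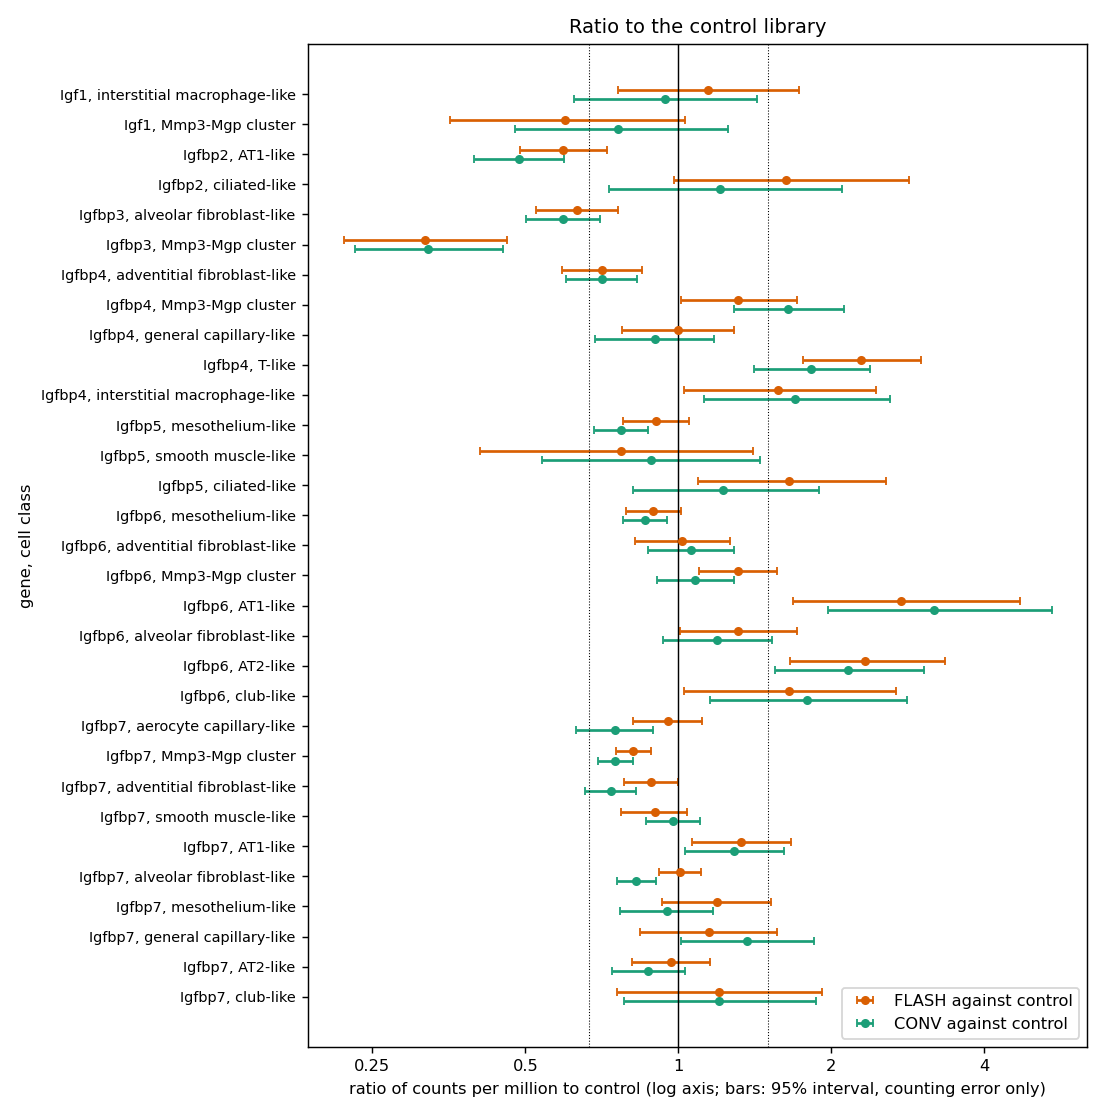
Ratio of CPM to the control library (horizontal log axis) for the gene and class pairs with a value in both comparisons, other than Igfbp4 in the Itm2a-Tnfrsf4 cluster, FLASH above CONV, with 95% intervals that cover counting error only. Dotted lines mark 1.5-fold in either direction. Most pairs lie between the dotted lines, Igfbp6 in AT1-like and AT2-like cells lies to the right for both modes, and Igfbp2 in AT1-like and Igfbp3 in alveolar fibroblast-like cells lie to the left.

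Counted over the pairs of a member and a class with at least 20 cells in each library and 50 UMIs over the 2 libraries compared, a minority passed 1.5-fold. Between FLASH and control, 6 of 25 pairs were higher (24%) and 4 lower (16%), against 7.58% and 10.5% of 23170 pairs over all genes. The 6 were Igfbp6 in AT2-like and club-like cells, Igfbp4 in T-like and interstitial macrophage-like cells, and Igfbp2 and Igfbp5 in ciliated-like cells. The 4 were Igfbp3 in alveolar fibroblast-like cells and in the Mmp3-Mgp cluster, Igf1 in that cluster and Igfbp4 in the Itm2a-Tnfrsf4 cluster. Between CONV and control, 7 of 29 pairs were higher (24.1%) and 4 lower (13.8%), against 8.83% and 10.7% of 27044 pairs. Of these, 4 higher pairs (Igfbp6 in AT2-like and club-like cells, Igfbp4 in T-like and interstitial macrophage-like cells) and 3 lower pairs (Igfbp3 in alveolar fibroblast-like cells and the Mmp3-Mgp cluster, Igfbp4 in the Itm2a-Tnfrsf4 cluster) were also past 1.5-fold between FLASH and control. The others were Igfbp4 in the Mmp3-Mgp cluster and Igfbp5 in adventitial fibroblast-like and general capillary-like cells, which were higher, and Igfbp3 in adventitial fibroblast-like cells, which was lower. The median log2 ratio of the members' pairs was 0.03 for FLASH and -0.03 for CONV, against -0.05 and -0.04 over all pairs. Higher pairs were a larger share among the members than over all genes, and lower pairs a share nearer to it. The members were chosen with earlier results of these data known, so no trait of the members is read from these shares. Some counted pairs had intervals that included 1, such as Igfbp2 in ciliated-like cells for FLASH and Igfbp5 in general capillary-like cells for CONV. Igfbp6 in club-like cells, from which no order is read, is also counted. The 2 comparisons to control share that library.

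Between FLASH and CONV few pairs passed 1.5-fold. Of 30 pairs, 1 was higher past 1.5-fold (3.33%) and 0 lower, against 4.6% and 4.55% of 26810 pairs over all genes. The 1 pair was Igfbp7 in interstitial macrophage-like cells, described above. The median log2 ratio was 0.05 over the members' pairs, against 9.8e-05 over all pairs.

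Over a whole library the ratios differed from those within classes. Igfbp4 summed to 185 CPM in FLASH, 208 CPM in CONV and 113 CPM in control over all cells kept, and Igfbp6 to 327, 360 and 203 CPM. Without lymphoid cells Igfbp4 had 176 CPM in FLASH, 204 CPM in CONV and 175 CPM in control. Its ratios to control were then 1.004 (0.902 to 1.12) for FLASH and 1.16 (1.05 to 1.28) for CONV, in place of 1.64 and 1.83. Over non-lymphoid cells alone Igfbp6 had 383 CPM in FLASH, 416 CPM in CONV and 387 CPM in control, and its FLASH to control ratio was 0.990 (0.921 to 1.06) in place of 1.61. The ratio of Igfbp7 between CONV and control was 1.63 (1.57 to 1.70) over all cells and 0.988 (0.949 to 1.03) over non-lymphoid cells. Igfbp3 and Igfbp5 shifted in the same direction, from FLASH to control ratios of 0.933 and 0.900 over all cells. Over non-lymphoid cells these were 0.570 (0.489 to 0.664) and 0.552 (0.491 to 0.620), further below 1. A lower share of a class and less RNA per cell cannot be told apart in such sums.

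**Figure D5:**
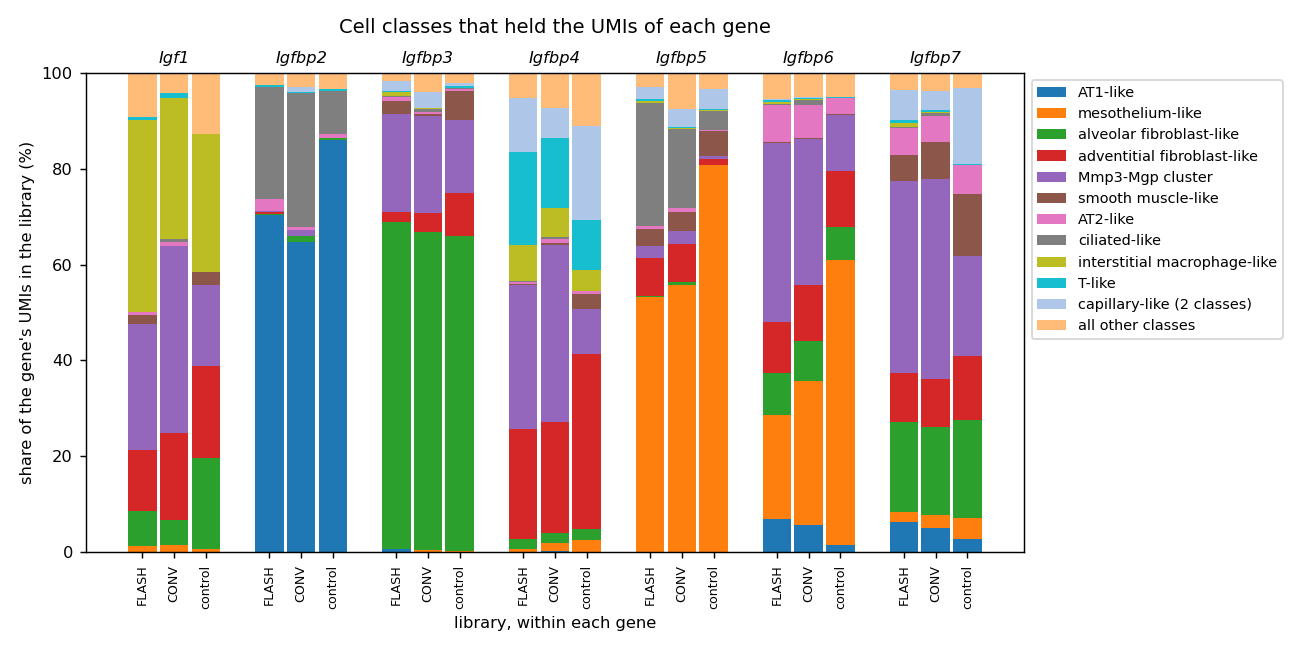
Share of each gene's UMIs (vertical axis, in percent of the library's UMIs of that gene) held by the cell classes, for the FLASH, CONV and control libraries. AT1-like cells hold 70.3%, 64.7% and 85.9% of Igfbp2, and the Mmp3-Mgp cluster holds 37.2% of Igfbp6 in FLASH and 30.5% in CONV against 11.6% in control.

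The classes that hold these UMIs differed in size between libraries. The Mmp3-Mgp cluster was 8.03% of FLASH, 8.71% of CONV and 1.88% of control cells, and it held 40.1%, 41.8% and 20.9% of the Igfbp7 UMIs in that order. Mesothelium-like cells were 0.755%, 0.838% and 0.938% of the cells and held 21.7%, 30% and 59.5% of the Igfbp6 UMIs in FLASH, CONV and control. The part of dissociation and cell loading in these sizes was not tested.

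The rest of the IGF system was read from a list of 20 genes of ligand, receptors, adaptors, proteases and inhibitors. Igfbp1, Igfbpl1 and Igfals (the acid labile subunit) had 0 UMIs in the kept cells, and the ligand gene Igf2 had 29 UMIs in all, 4 in FLASH, 18 in CONV and 7 in control. The protease genes Pappa and Pappa2, the first of which cuts IGFBP4, had 33 and 10 UMIs, and the Mmp3-Mgp cluster held 15 of those of Pappa. The receptor gene Igf1r had 553 UMIs and stood at 146 CPM in AT1-like cells, on 25 UMIs over the 3 libraries, and at the same level in the 12 mast or basophil-like cells. Htra1, a secreted protease that can cut binding proteins, was highest in adventitial fibroblast-like cells at 336 CPM.

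Between FLASH and control, 9 of the 20 genes had a pair with enough counts, and 2 of 23 pairs were higher and 2 lower past 1.5-fold, against 7.58% and 10.5% over all genes. The largest ratios were 0.440 (0.244 to 0.804) for Ghr, the growth hormone receptor, in the Mmp3-Mgp cluster, 1.77 (0.971 to 3.39) for the endocytic receptor gene Lrp1 in interstitial macrophage-like cells and 1.68 (0.876 to 3.44) for Tmem219, which encodes an IGFBP3 receptor, in alveolar macrophage-like cells. Between CONV and control, 5 of 31 pairs were higher and 2 lower, against 8.83% and 10.7%. The largest were 2.38 (1.29 to 4.73) for Igf1r in alveolar fibroblast-like cells, with 110 CPM in CONV and 46.1 CPM in control, 2.08 (0.975 to 5.10) for Lrp1 in classical monocyte-like cells and 1.85 (1.06 to 3.39) for the insulin receptor gene Insr in AT2-like cells. Between FLASH and CONV, 1 of 31 pairs was higher and 1 lower, against 4.6% and 4.55%, namely the adaptor gene Grb14 in ciliated-like cells at 1.88 (1.14 to 3.12) and Lrp1 in classical monocyte-like cells at 0.622 (0.367 to 1.03), followed by Socs2, a feedback inhibitor of growth hormone signalling, in alveolar macrophage-like cells at 1.46 (0.882 to 2.45).

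The genes most alike in pattern were found by Pearson's r of log2(CPM + 10) over the 26 classes, among 10822 genes with at least 100 UMIs. The classes pool the 3 libraries, so r describes cell types and not irradiation. Igfbp2 was most like Sema3e (0.94), Rgs11 (0.93) and Akr1c14 (0.92), which were all highest in AT1-like cells. Igfbp3 was most like Spon1 (0.95), Ednra (0.94) and Angpt1 (0.94), Igfbp5 like Adamts5 (0.91), Aebp1 (0.89) and Csrp2 (0.87), and Igfbp6 like Neo1 (0.92), Gpc3 (0.92) and Nbl1 (0.89). Igfbp7 was most like Sgce (0.95), Lhfp (0.93) and Arhgap6 (0.92). Igf1 was most like Clmp (0.88), Col14a1 (0.83) and Tnfsf13b (0.81), and Igfbp4 had the weakest likeness, with Rcn3, Mmp14 and Col14a1 (0.77 each). Among the members themselves the highest values were 0.70 for Igfbp3 with Igfbp7 and for Igfbp6 with Igfbp7, and the lowest was -0.26 for Igfbp2 with Igfbp4.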

How the data were processed

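Each of the 3 lung libraries came as a matrix of counts, the number of UMIs per gene and cell barcode, as deposited by the authors. Cell Ranger 2.0 and build mm10 are named per the submitters' processing notes, and no further step is given in the sources used here. The members and lists were chosen with earlier results of these data known.

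Barcodes with under 200 genes (50) or over 10% mitochondrial UMIs (154) were removed, as were the 121 with the highest Scrublet scores, a share of 0.8% per 1000 barcodes, since the automatic threshold of Scrublet marked 44. Cells were scaled to 10000 UMIs and clustered with scanpy 1.11.5 on 2000 variable genes without the members (30 components, 15 neighbours, Leiden resolution 1). A cluster was named from at least 3 detected markers.

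UMIs were summed per class and library and divided by the class total (CPM). A member was described in a class with at least 20 cells in each library and at least 50 UMIs over the 2 libraries compared. AT1-like, mesothelium-like and aerocyte capillary-like cells, with at least 10, were added after seeing the data. The other genes named are the 3 most alike per member and the 3 largest ratios per comparison of the 20-gene list. The cluster led by Itm2a and Tnfrsf4 and the coreceptor split of T-like cells were read after the values were seen. Each group is 1 library, so no test was made. Ratios, their intervals and the 1.5-fold calls were tested on simulated counts. Those were Poisson draws of class sums, so UMIs gathered in single cells were not part of that test. There were 11 planned and 2 added alternatives. A range over the alternatives covers only those that gave a ratio for the pair. Scripts used Python 3.11.15, numpy 2.4.6, scipy 1.17.1 and pandas 2.3.3.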

Additional observations from a re-analysis of the deposited data

Results flagged for a closer look

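Igfbp4 lay on opposite sides of control in 2 lymphoid clusters. In T-like cells the FLASH to control ratio was 2.29 and the CONV to control ratio 1.82, while in the cluster led by Itm2a and Tnfrsf4 they were 0.0992 and 0.365. The difference between the clusters was not tested, since each group is 1 library. The second cluster held 1 Igfbp4 UMI in FLASH and 6 in CONV, against 60 in control.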

How the results depend on the processing

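Of 84 ratios of a member in a class, 22 were past 1.5-fold, 16 of them in every setting that gave a ratio for the pair. None of the 22 moved to the other side of 1 in those settings. Not every setting gave a ratio: there were 13 for Igfbp6 in AT2-like cells but 8 for Igfbp4 in the Itm2a-Tnfrsf4 cluster. The number of lower pairs between FLASH and control, 4 in the report, was 2 with at most 5% mitochondrial UMIs, 7 with at most 20%, 2 with at least 100 UMIs per pair and 2 without the cell with most UMIs. Between CONV and control it was 2 at Leiden resolution 0.5, 2 with at least 100 UMIs and 2 without that cell. Between FLASH and CONV it was 1 in place of 0 with no doublet removal, with the median of ratios, with the B-like level subtracted and without that cell. With at least 100 UMIs the higher pairs were 4 between CONV and control and 0 between FLASH and CONV. With a minimum of 1 UMI the higher and lower pairs were 45 and 30 for FLASH against control, 57 and 22 for CONV against control, and 22 and 40 for FLASH against CONV, since more pairs entered. Over non-lymphoid cells only, 7 whole-library ratios to control that were above 1 over all cells lay below it. They were Igf1 (0.942) and Igfbp6 (0.990) in FLASH, and Igf1 (0.861), Igfbp2 (0.903), Igfbp3 (0.629), Igfbp5 (0.699) and Igfbp7 (0.988) in CONV. The cause of the other shifts was not tested. Leaving out the top cell and adding classes of at least 10 cells were chosen after seeing the data. No paired analysis was possible because each group is 1 library. Depth limits the small classes, such as the 11 control AT1-like cells.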
